A study of Mus musculus with 6 samples.

Results

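Themis and the genes of the proximal T cell receptor (TCR) complex were followed in invariant natural killer T (iNKT) cells from PLZF_ON and WT mice. The set was a fixed list of 10 genes, and a gene was taken from the array row that carried its symbol and no other. Of the 10, 9 had such a row, 1 row each, among 22180 genes named in this way. Cd247, the zeta chain of the receptor, was not listed in the platform annotation used and was not analysed here.

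The receptor that recognises antigen cannot signal by itself. It is assembled with the CD3 chains and the zeta chain, whose cytoplasmic tails are phosphorylated by Src family kinases. The kinase ZAP-70 binds these tails and phosphorylates the scaffold LAT and the adaptor SLP-76 (encoded by Lcp2), on which the downstream enzymes gather. Themis is a T-lineage protein that binds the adaptor Grb2 and the phosphatase SHP-1, and in mouse thymocytes it adjusts the response to weak receptor signals during positive selection. iNKT cells are T cells with a nearly invariant receptor that are selected on lipids presented by CD1d, and they require PLZF, the transcription factor made from Zbtb16.

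The tested cells came from PLZF_ON mice, in which PLZF is present in a constitutively acetylated form, and the controls from WT mice, with 3 whole-transcript arrays per genotype. The labels give iNKT cells as the cell type of all 6 arrays, while for the mice no organ, age, sex or strain, no construct of the allele and no cell sort is stated in the sources at hand. The study's design text names replicates 1 and 2 of each genotype (4 arrays) as those it analysed, so these made the main comparison, and a second comparison used all 6. The values are RMA log2 expression values as deposited, on which a difference of 1 is a doubling. Whether the replicates are separate animals is not stated, and the p-values therefore reflect the spread among these arrays alone, part of which may be technical.

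PLZF_ON replicate 3 stood apart. It correlated with the other arrays at 0.895 to 0.898 across rows, while the other 5 correlated among themselves at 0.957 to 0.973, and its SD over rows was 1.79, against 1.97 to 2.01 on the others. Bright genes were lower on it: among the 785 genes with a WT mean of at least 9, the median difference between the replicate 3 arrays was -0.53, against 0.02 for replicate 1 and -0.04 for replicate 2. A log2 level of 5.21 was taken as the background, below which 95% of 1390 odorant and vomeronasal receptor genes lay on average, since T cells are not expected to transcribe them. The T cell markers Cd3d, Cd3e, Cd3g and Thy1 were above it on every array. The means of all 5 B cell markers and all 4 stromal markers measured lay below it. Of the 6 myeloid markers those of Lyz2, Csf1r and Adgre1 did, though Lyz2 was at 6.58 on PLZF_ON replicate 3, against 3.96 to 4.48 on the other 5 arrays. The means of the other 3 myeloid markers, Itgam, Cd68 and Cst3, lay above the background level. Over the 6 arrays Cst3 was at 8.35 to 9.13, Cd68 at 5.32 to 6.95 and Itgam at 4.83 to 5.61. Of the 4 epithelial markers Krt8 and Cdh1 had means above it and Epcam and Krt18 did not, though Krt18 was at 6.202 on PLZF_ON replicate 3, and Cdh1 fell over the 4 arrays (log2 difference -2.08, limma adjusted p = 0.0132). All 4 NK markers measured (Ncr1, Klrb1c, Eomes and Klre1), some of which iNKT cells also express, had means above it.

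Themis rose in PLZF_ON iNKT cells, and it was the only 1 of the 9 measured members to pass the test. Its log2 level was 8.13, 8.06 and 7.71 on PLZF_ON replicates 1 to 3 and 5.91, 6.37 and 6.02 on WT replicates 1 to 3. The lowest PLZF_ON array thus lay above the highest WT array, and all 6 values were above the background level. Over the 4 arrays Themis averaged 8.09 ± 0.05 in PLZF_ON and 6.14 ± 0.33 in WT (SD, n = 2 each), a log2 difference of 1.95, or 3.88-fold (95% interval of the ratio 2.83 to 5.30, SE 0.19 on the log2 scale, limma adjusted p = 0.0333). Over all 6 arrays the means were 7.96 ± 0.22 in PLZF_ON and 6.10 ± 0.24 in WT (SD, n = 3 each), a log2 difference of 1.86, or 3.64-fold (SE 0.19, limma adjusted p = 0.0341). By p-value Themis ranked 27th of 23521 tested rows over 4 arrays and 9th over 6. The summed linear level of the 4 NK markers was lower on every PLZF_ON array than on any WT array: on the log2 scale it was 9.79, 7.82 and 9.51 in PLZF_ON and 10.71, 10.46 and 10.33 in WT. Klrb1c had a 4-array log2 difference of -2.19 and Klre1 of -1.95, both with all PLZF_ON arrays below all WT arrays, and neither passed (limma adjusted p = 0.157 and 0.582). Ncr1 and Eomes overlapped, with differences of -0.02 and 0.32. The part of these NK transcripts in the difference of Themis was not tested. In such bulk samples a larger share of cells with a transcript and more transcript per cell cannot be told apart.

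For comparison, 40 of the 23521 rows (0.17%) passed a limma adjusted p of 0.05 over 4 arrays, 24 of them as higher in PLZF_ON (0.102%) and 16 as lower (0.068%). Over 6 arrays 22 rows passed (0.0935%), 6 as higher (0.0255%) and 16 as lower (0.068%). The call on Themis was lost over 4 arrays without PLZF_ON replicate 1 (log2 difference 1.92, adjusted p = 0.103) and without PLZF_ON replicate 2 (1.99, adjusted p = 0.22), though the size of the difference barely changed. It was also lost when all 41345 deposited rows, named or not, were tested together (adjusted p = 0.299 over 4 arrays and 0.207 over 6). Over 6 arrays the adjusted p was 0.0113 without PLZF_ON replicate 3, 0.108 without PLZF_ON replicate 1, 0.116 without PLZF_ON replicate 2, and 0.275, 0.111 and 0.207 without WT replicates 1, 2 and 3. A two-sided exact permutation test of Themis over the 6 arrays gave p = 0.1, the smallest that 3 arrays against 3 allow.

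**Figure D1:**
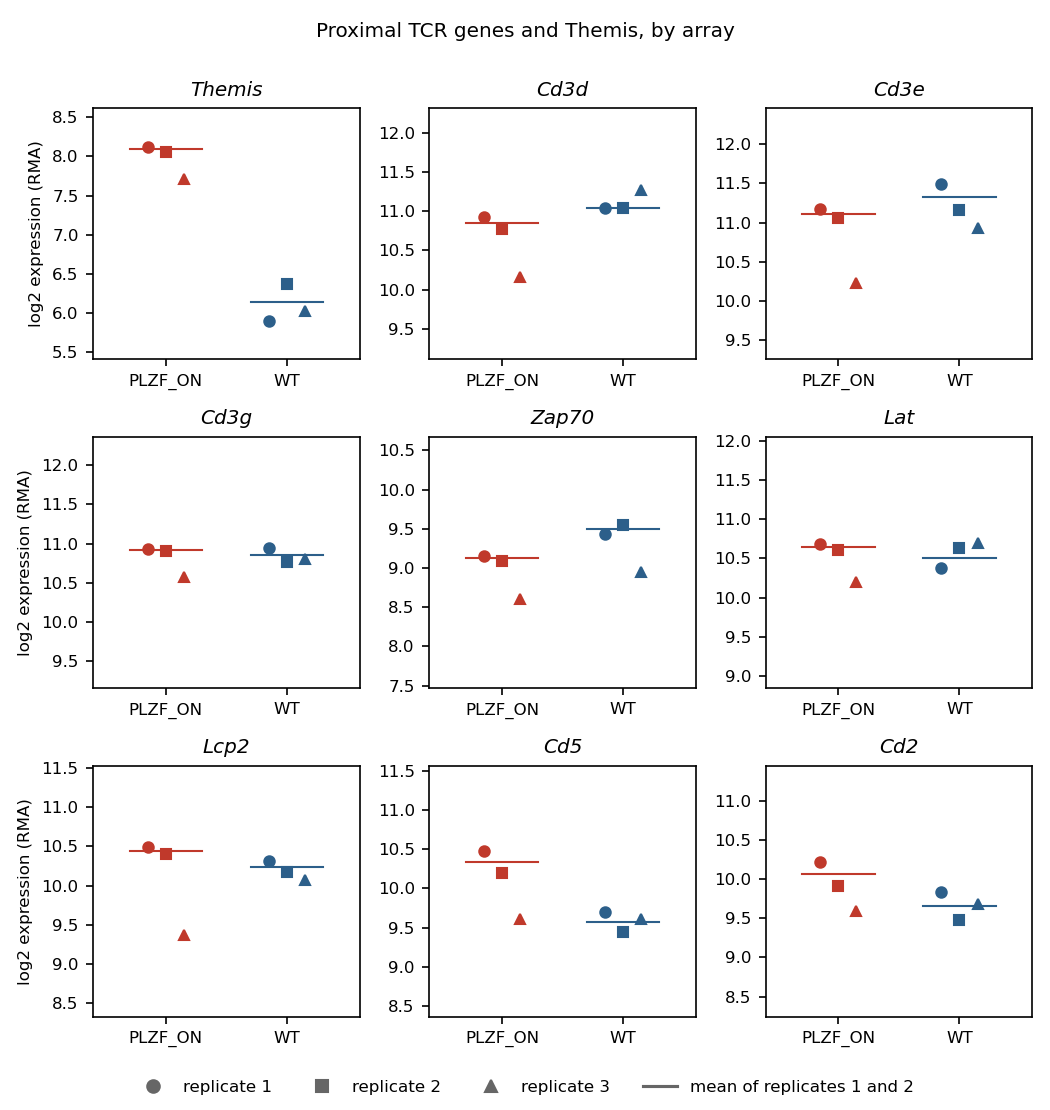
Log2 expression (RMA, vertical axes, each spanning the same number of log2 units) of the 9 measured members on every array, PLZF_ON in red and WT in blue, with replicate numbers as symbols and the mean of replicates 1 and 2 as a line. Themis is the panel in which the genotypes lie far apart, at 7.71 to 8.13 in PLZF_ON and 5.91 to 6.37 in WT.

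The sequence just before the transcription start is shown for Themis, which rose, for Cd5, which had the next largest difference, and for Cd3e, a receptor chain that did not pass. Each stretch holds the 250 bases before the first annotated start, 5′ to 3′ on the gene's strand, from RefSeq (GRCm38.p6), and capitals mark GGAA or its complement TTCC, the core bound by ETS factors. The Themis window is chr10:28668110-28668359 (plus strand), that of Cd5 chr19:10738975-10739224 (minus strand) and that of Cd3e chr9:45009612-45009861 (minus strand).
Themis: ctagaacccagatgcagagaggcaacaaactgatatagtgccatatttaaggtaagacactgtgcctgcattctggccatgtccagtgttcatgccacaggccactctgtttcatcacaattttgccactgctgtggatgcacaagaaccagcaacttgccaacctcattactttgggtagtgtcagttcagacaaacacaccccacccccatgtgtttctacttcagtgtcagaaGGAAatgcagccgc
Cd5: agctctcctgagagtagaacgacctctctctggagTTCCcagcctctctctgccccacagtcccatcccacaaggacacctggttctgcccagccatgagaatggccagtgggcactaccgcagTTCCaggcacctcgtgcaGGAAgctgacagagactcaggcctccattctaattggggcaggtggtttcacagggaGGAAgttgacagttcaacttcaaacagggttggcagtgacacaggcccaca
Cd3e: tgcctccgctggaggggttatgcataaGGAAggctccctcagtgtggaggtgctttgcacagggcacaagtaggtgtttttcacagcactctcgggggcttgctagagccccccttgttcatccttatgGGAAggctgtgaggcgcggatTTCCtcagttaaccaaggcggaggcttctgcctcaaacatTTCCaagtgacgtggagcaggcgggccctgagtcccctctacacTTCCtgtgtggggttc
The ETS core occurred 1 time in the Themis window, 14 bases before the start, 4 times in that of Cd5 and 5 times in that of Cd3e, counting both strands. It is found in 93.4% of all 32851 windows of this length, so its presence distinguishes none of them. The E-box CANNTG occurred 2 times for Themis, 2 times for Cd5 and 1 time for Cd3e (66.2% of all windows hold it). Neither the RUNX motif TGTGGT (14.0% of all windows) nor the TCF/LEF motif CTTTGA (13.8%) was in any of the 3 windows. Of the 9 members with a promoter entry, Cd247 among them, Cd3d, Zap70 and Lcp2 held CTTTGA before their first start.

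The CD3 chains, the signalling subunits that carry the receptor to the surface, did not pass the test in any comparison. Cd3g stood at 10.93, 10.91 and 10.57 on PLZF_ON replicates 1 to 3 and at 10.95, 10.76 and 10.80 on WT replicates 1 to 3. Over 4 arrays its log2 difference was 0.06, with a 95% interval of -0.27 to 0.40 (limma adjusted p = 0.95), so that a change beyond 1.32-fold upwards lay outside the interval. Its PLZF_ON and WT arrays overlapped.

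Cd3e stood at 11.17, 11.06 and 10.23 on the PLZF_ON arrays and at 11.49, 11.16 and 10.93 on the WT arrays, with a log2 difference of -0.21 over 4 arrays (95% interval -0.61 to 0.19, limma adjusted p = 0.803). Cd3d stood at 10.92, 10.77 and 10.16 on the PLZF_ON arrays and at 11.04, 11.04 and 11.27 on the WT arrays. All 3 PLZF_ON arrays thus lay below all 3 WT arrays for Cd3d, as they did for 6.22% of all rows. Its log2 difference was -0.19 over 4 arrays (95% interval -0.52 to 0.14, limma adjusted p = 0.772) and -0.50 over 6 (SE 0.22, limma adjusted p = 0.881). The replicate 3 arrays differed by -1.12, beside the lower level of bright genes on PLZF_ON replicate 3 given above, and the replicate 1 and 2 arrays by -0.11 and -0.27. Cd3g, Cd3d and Cd3e lie next to each other in the gene table. Their nearest neighbours Ube4a and Mpzl2 had log2 differences of 0.48 and 0.06 over 4 arrays and did not pass (limma adjusted p = 0.369 and 0.957).

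Zap70, the kinase recruited to the phosphorylated receptor tails, stood at 9.16, 9.09 and 8.60 on the PLZF_ON arrays and at 9.44, 9.54 and 8.95 on the WT arrays. Within each replicate number PLZF_ON was the lower, although PLZF_ON replicates 1 and 2 lay above WT replicate 3. The log2 difference was -0.37 over 4 arrays, with a 95% interval of -0.69 to -0.05, and did not pass over all rows (unadjusted p = 0.0309, limma adjusted p = 0.45).

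Lat, the membrane scaffold phosphorylated by ZAP-70, stood at 10.68, 10.61 and 10.20 on the PLZF_ON arrays and at 10.38, 10.63 and 10.69 on the WT arrays. The groups overlapped, with a log2 difference of 0.14 over 4 arrays (95% interval -0.22 to 0.50, limma adjusted p = 0.872). Lcp2, the SLP-76 adaptor that joins LAT to its effectors, stood at 10.49, 10.40 and 9.36 on the PLZF_ON arrays and at 10.31, 10.17 and 10.08 on the WT arrays. Its 4-array difference was 0.20 (95% interval -0.13 to 0.53, limma adjusted p = 0.755), while the replicate 3 arrays differed the other way, by -0.71. Over all 6 arrays both adaptors had small negative differences, -0.07 for Lat and -0.10 for Lcp2 (SE 0.19 and 0.30).

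Cd5, a surface receptor that dampens TCR signalling and whose level on thymocytes follows the strength of that signal, had the next largest difference. It stood at 10.48, 10.20 and 9.62 on the PLZF_ON arrays and at 9.70, 9.45 and 9.61 on the WT arrays. PLZF_ON replicates 1 and 2 lay above all WT arrays, whereas PLZF_ON replicate 3 was level with WT replicate 3. Over 4 arrays the log2 difference was 0.77, or 1.70-fold (95% interval of the log2 difference 0.36 to 1.18). Its unadjusted p was 0.0036, and it did not pass over all rows (limma adjusted p = 0.198). Over 6 arrays the difference was 0.51 (SE 0.23, limma adjusted p = 0.888). With the arrays quantile-normalized again, which takes out the narrower spread of PLZF_ON replicate 3, Cd5 differed by 0.23 between the replicate 3 arrays, and Themis by 2.02. On the same scale Cd3d still differed by -0.90, Cd3e by -0.52, Lcp2 by -0.46 and Lat by -0.28 between the replicate 3 arrays, Cd2 by 0.14, and Cd3g and Zap70 by -0.02 and -0.01. In simulated data with 2 arrays per genotype the test found 21% of rows changed by 1 log2 unit and 94% of rows changed by 2, so a change the size of that of Cd5 is seldom called in this design.

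Cd2, an adhesion and costimulatory receptor whose mouse ligand is CD48, stood at 10.22, 9.91 and 9.60 on the PLZF_ON arrays and at 9.84, 9.47 and 9.68 on the WT arrays. Its log2 difference was 0.41 over 4 arrays (95% interval -0.05 to 0.86, limma adjusted p = 0.596) and 0.24 over 6 (SE 0.20, limma adjusted p = 0.941). PLZF_ON lay above WT in replicates 1 and 2 and slightly below it in replicate 3.

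**Figure D2:**
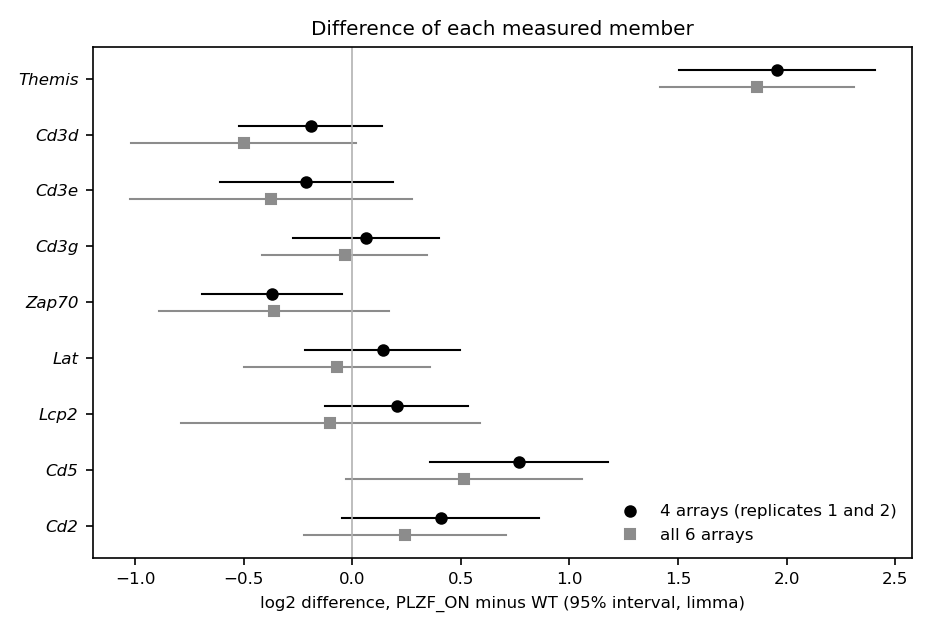
Log2 difference, PLZF_ON minus WT (horizontal axis), with its 95% interval from limma for each of the 9 measured members, over 4 arrays (black circles) and all 6 (grey squares). The interval of Themis over 4 arrays runs from 1.503 to 2.41, and those of the other 8 members lie between -0.69 and 1.18.

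Over 4 arrays the 8 members other than Themis had differences between -0.37 and 0.77, with a median of 0.10, beside a median of -0.004 over all 22180 genes. The median absolute difference of the 8 was 0.21, beside 0.13 over all genes, and over 6 arrays 0.30, beside 0.15. None of the 8 passed over 4 arrays (limma adjusted p from 0.198 to 0.95), while Cd5 (higher) and Zap70 (lower) had an unadjusted p under 0.05, which 9.41% of all rows reached. The PLZF_ON and WT arrays did not overlap for Themis, Cd5, Cd2 and Lcp2 (higher) and for Zap70 and Cd3d (lower), as they did not for 38.2% of all rows over 4 arrays. Over 6 arrays only Themis (higher, as 5.55% of all rows) and Cd3d (lower) did not overlap, against 11.8% of all rows in either direction, and Themis alone had an unadjusted p under 0.05, against 5.77%.

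Themis was also set against the other 8 members on each array, with every gene centred on its mean over the 6 arrays. Themis exceeded the mean of the others by 0.85, 0.93 and 1.15 on PLZF_ON replicates 1 to 3, and by -1.25, -0.67 and -0.996 on WT replicates 1 to 3. PLZF_ON replicate 3, on which the others were low (their centred mean was -0.47), had the widest gap of the PLZF_ON arrays. The others are bright genes, with WT means of 9.31 to 11.19 against 6.10 for Themis, and bright genes were lower on that array. The part of brightness in that gap was not tested. Over 4 arrays the difference of Themis was larger than the mean difference of the others by 1.85 and larger than that of Cd5 by 1.19, on the log2 scale. These gaps are descriptions and were not tested.

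Themis is abundant in immature CD4+ CD8+ thymocytes, so the genes of that stage were examined beside it. Cd8a was at 4.44, 4.39 and 6.55 on PLZF_ON replicates 1 to 3 and at 4.60, 4.73 and 4.51 on the WT arrays. Cd24a, a surface glycoprotein lost on maturation, was at 4.92, 4.50 and 9.58 in PLZF_ON and at 5.27, 4.52 and 4.41 in WT. Dntt, which adds bases at receptor joints, was at 3.78, 4.10 and 7.19 in PLZF_ON and at 3.46, 4.03 and 4.07 in WT. PLZF_ON replicate 3 was high for all 3 genes, and for Cd8b1 (7.77, against 5.08 and 5.89 on PLZF_ON replicates 1 and 2), while PLZF_ON replicates 1 and 2 lay near the WT values. On PLZF_ON replicates 1 and 2 Cd8a, Cd24a and Dntt were below the background level, while Cd4, Rmnd5a, Ptcra and Cd1d1 were above it. The difference of Themis without PLZF_ON replicate 3 was 1.99 (5 arrays). Cd8b1 was above the background level on PLZF_ON replicate 2 and on WT replicates 1 and 2 (5.44 and 5.54). Rmnd5a was at 7.72 and 7.65 on PLZF_ON replicates 1 and 2, against 7.44 and 7.27 on WT replicates 1 and 2 (log2 difference 0.33, limma adjusted p = 0.539). Aqp11 was lower, at 4.94, 5.44 and 4.95 in PLZF_ON and 6.78, 5.47 and 6.85 in WT. Its log2 difference was -0.94 over 4 arrays and -1.26 over 6 (limma adjusted p = 0.588 and 0.52). Ptcra and Cd1d1 differed by -0.09 and -0.15 over 4 arrays (limma adjusted p = 0.915 and 0.853). Rag2, a recombinase subunit, lay between 3.35 and 4.39 on all 6 arrays, below the background level.

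Of the 10 immature thymocyte markers measured, 7 had means above the background level, and Rag2, Dntt and Cd8a did not. None of the 10 passed limma over 4 arrays, and none had an unadjusted p under 0.05 except Cd4. The summed linear level of all 10, on the log2 scale, was 10.19, 9.90 and 10.96 in PLZF_ON and 9.61, 9.37 and 9.28 in WT. This sum was higher on every PLZF_ON array, but it is weighted to the brightest genes. Cd4 was the highest of the 10 on every array except PLZF_ON replicate 3, where Cd24a was (9.58). The median level of the 10 was 5.01, 5.46 and 6.52 in PLZF_ON and 5.54, 5.51 and 5.47 in WT. Over the 4 arrays 4 of the 10 had a positive difference. Cd4, which some iNKT cells also carry, was at 9.46, 8.90 and 8.91 in PLZF_ON and at 8.01, 7.80 and 7.56 in WT, a 4-array log2 difference of 1.28 (SE 0.21, limma adjusted p = 0.115). The part of the cell composition of the samples in the difference of Themis was not tested.

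**Figure D3:**
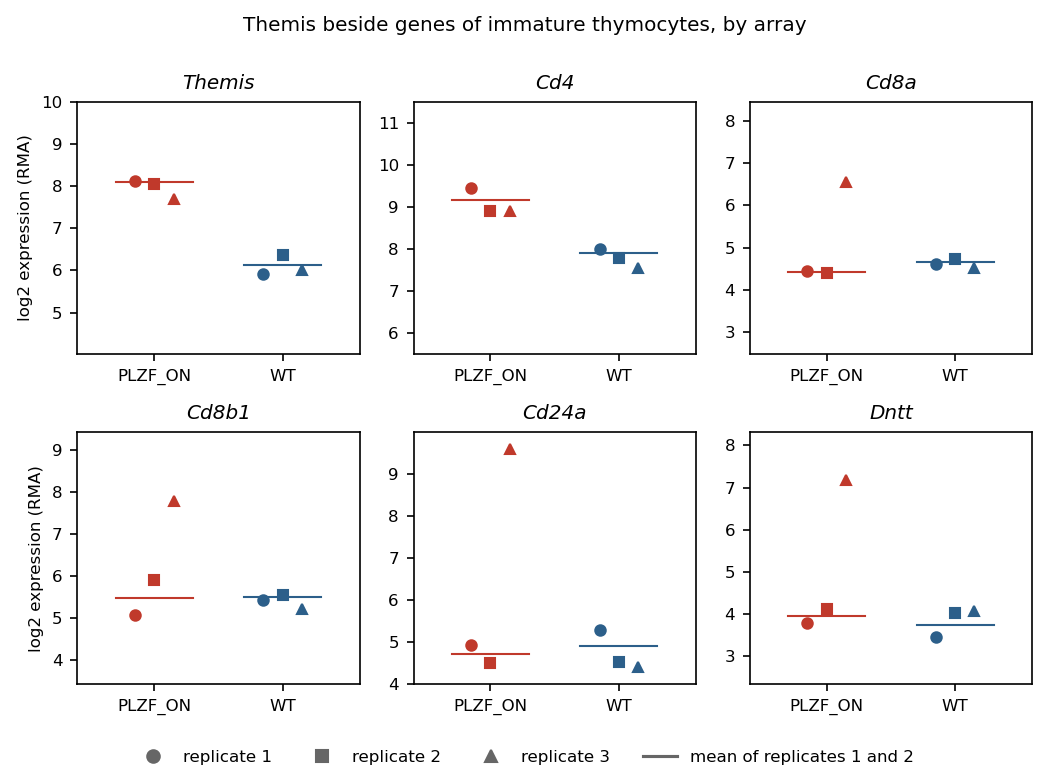
Log2 expression (RMA) of Themis, Cd4, Cd8a, Cd8b1, Cd24a and Dntt by array, PLZF_ON in red and WT in blue, symbols by replicate number, lines at the mean of replicates 1 and 2. Cd8a, Cd24a and Dntt are high on PLZF_ON replicate 3 alone (6.55, 9.58 and 7.19). Themis is at 8.13, 8.06 and 7.71 on PLZF_ON replicates 1 to 3, and Cd4 at 9.46, 8.90 and 8.91.

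Further genes of TCR signalling were taken from a list of 72, of which 65 were measured (the other 7 were not analysed here). None passed limma over 4 arrays, while 5 had an unadjusted p under 0.05 as higher (7.69%, against 4.88% of all rows) and 11 as lower (16.9%, against 4.53%). Their median difference was 0.0065, beside -0.004 for all genes. PLZF_ON and WT did not overlap for 19 of the 65 as higher (29.2%, against 18.9% of all rows) and for 21 as lower (32.3%, against 19.3%). The shares are not matched for expression level, since the median of the row means, 5.07, lies below the background level of 5.21. The median absolute difference over 4 arrays was 0.24 for the 65 genes and 0.13 for all genes.

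The largest difference among them was that of Cd4, given above, and the others with the smallest p among the higher genes were Dgka, Cd28, Plcg1 and Cblb. Dgka, a diacylglycerol kinase that limits the signal passed to Ras, stood at 9.96, 9.90 and 10.12 on the PLZF_ON arrays and at 9.19, 9.31 and 9.45 on the WT arrays, with no overlap and a log2 difference of 0.68 over both 4 and 6 arrays (limma adjusted p = 0.165 and 0.311). Cd28, the costimulatory receptor, differed by 0.64, Cblb, an E3 ubiquitin ligase that restrains activation, by 0.45, and Plcg1, the phospholipase bound to LAT, by 0.37. These 5 genes had SE of 0.13 to 0.21 and limma adjusted p-values from 0.115 to 0.462. Cd28, Cblb and Plcg1 were lower on PLZF_ON replicate 3 than on every WT array.

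On the lower side, the genes with the smallest p were Pag1, Lax1, Wipf1, Pstpip1 and Cbl. Pag1, the membrane anchor of the inhibitory kinase Csk, stood at 6.78, 6.53 and 6.15 on the PLZF_ON arrays and at 7.35, 7.35 and 7.47 on the WT arrays, a 4-array log2 difference of -0.70. Lax1, a membrane adaptor related to LAT that dampens signalling, stood at 8.66, 8.39 and 8.45 on the PLZF_ON arrays and at 9.29, 9.19 and 8.95 on the WT arrays, a difference of -0.71. Neither gene overlapped between the genotypes over 6 arrays. Wipf1, a partner of the actin regulator WASP, differed by -0.56, Pstpip1, a cytoskeletal adaptor that binds CD2, by -0.49, and Cbl, a further E3 ubiquitin ligase, by -0.47. For these 5 the SE was 0.14 to 0.15 and the adjusted p by limma lay between 0.183 and 0.389.

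Over 6 arrays none of the 65 passed either (smallest limma adjusted p = 0.124), 2 had an unadjusted p under 0.05 as higher (against 2.45% of all rows) and 10 as lower (against 3.32%). Then 2 (3.08%) lay wholly higher, against 5.55% of all rows, and 16 (24.6%) wholly lower, against 6.22%, beside the lower level of bright genes on PLZF_ON replicate 3. The shares over 6 arrays are not matched for expression level either.

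Binding partners and relatives of Themis in the list were looked at for their role, with their values known. Grb2 differed by 0.13 over 4 arrays (SE 0.21, limma adjusted p = 0.927), Vav1, an exchange factor, by 0.33 (SE 0.16, adjusted p = 0.604), and Ptpn11, which encodes SHP-2, by 0.32 (SE 0.21, adjusted p = 0.75). Ptpn6, which encodes SHP-1, was at 9.43, 9.14 and 8.69 in PLZF_ON and at 9.83, 9.66 and 9.58 in WT. All its PLZF_ON arrays lay below all WT arrays, and its 4-array log2 difference of -0.46 did not pass (SE 0.16, limma adjusted p = 0.434). Tespa1, another T-lineage protein needed for positive selection in mice, differed by 0.11 (SE 0.15, adjusted p = 0.91). Themis2, the family member of B cells and macrophages, was below the background level on all arrays, with values from 4.62 to 5.14. Ptprk, the gene next to Themis, was also below it (4.01 to 4.31), with a difference of 0.02 (SE 0.13, limma adjusted p = 0.988).

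**Figure D4:**
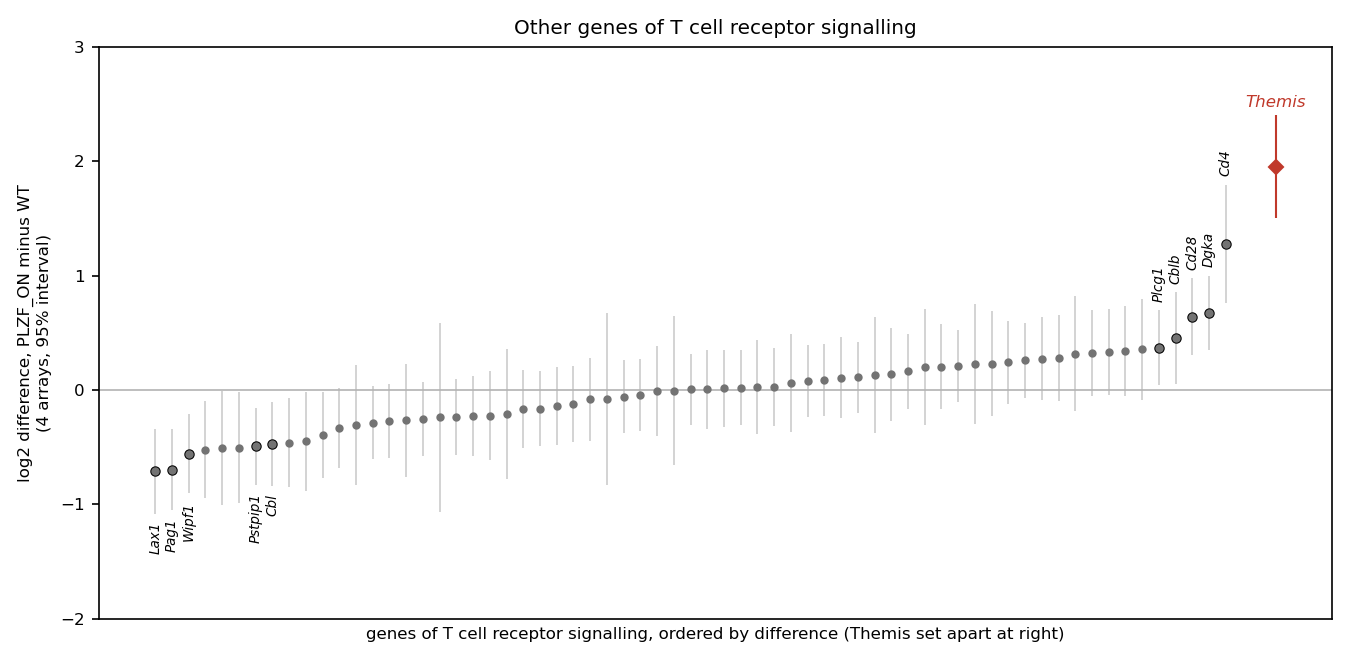
Log2 difference over 4 arrays, PLZF_ON minus WT (vertical axis), with 95% intervals from limma for the 65 measured genes of the signalling list in order of their difference, the 10 named ones in black with labels, and Themis at the right in red. The 65 differences run from -0.71 for Lax1 to 1.28 for Cd4, and that of Themis is 1.95.

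The genes whose profile over the 6 arrays was closest to that of Themis were found by the root mean square difference of log2 values centred on each gene's mean, among 10105 genes. The closest was Pebp1, a Raf kinase inhibitor protein (0.20 on the log2 scale), followed by Adamtsl3 (0.24) and Adk, adenosine kinase (0.25). Mapk11, a p38 MAP kinase, and Ecm1, a secreted matrix protein, both came to 0.31. Adh1, an alcohol dehydrogenase, came to 0.32, and BC106179 and Fcrl1, an Fc receptor-like protein, to 0.34. All 8 were higher on every PLZF_ON array than on any WT array, as were 5.55% of all rows and Themis, by whose profile they were chosen. Over 4 arrays 1 of the 8 passed limma, Adh1 (adjusted p = 0.0173), and the others had adjusted p-values up to 0.0986. Over 6 arrays Adh1 did not pass (limma adjusted p = 0.102), and of the 8 only Mapk11 did (limma adjusted p = 0.0459). Pebp1, the nearest, stood at 6.43, 6.49 and 5.86 in PLZF_ON and at 3.97, 4.80 and 4.70 in WT, where it lay below the background level. Adamtsl3, Mapk11 and Fcrl1 lay below that level on WT replicates 1 and 3. Among the other members Cd5 came nearest (0.72, place 248 in the order), then Cd2 (0.85, place 1025), and Cd3d was the farthest (1.20, place 8886).

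**Figure D5:**
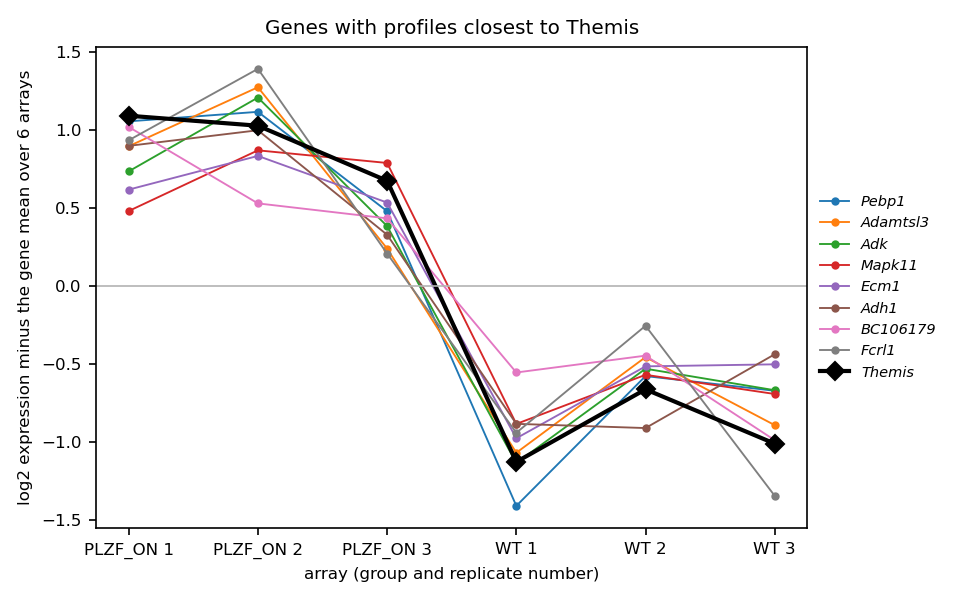
Log2 expression minus the gene's mean over 6 arrays (vertical axis) on each array (horizontal axis) for Themis (black diamonds) and the 8 genes with the closest profiles. Themis runs from 0.68 to 1.09 on the PLZF_ON arrays and from -1.13 to -0.66 on the WT arrays.

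Zbtb16, which encodes PLZF, had a 4-array log2 difference of 0.51 (SE 0.15, limma adjusted p = 0.369) and a 6-array one of 0.24 (SE 0.30, limma adjusted p = 0.941), with the replicate 3 arrays differing by -0.28. Since the altered acetylation concerns the protein, its mRNA does not check the labels.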

How the data were processed

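The deposited table holds log2 expression values made by the authors, 1 column per array; RMA is named, without a version, per the submitters' processing notes. RMA removes background, includes a step meant to equalise the distributions of the arrays, and understates changes in dim genes. The deposited distributions still differed, with array medians from 4.88 to 5.01 and SDs over rows from 1.79 to 2.01. Build and annotation: not given in the sources used here. Values were used as deposited.

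Of 41345 rows, 23521 had exactly 1 gene symbol in the platform annotation and were tested, 1814 had several and 16010 were unlisted. A gene with several rows was represented by the one with the highest mean. By Entrez number 23328 tested rows matched the gene table of GRCm38.p6, used for names and neighbours.

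PLZF_ON was compared with WT over 4 and over 6 arrays with limma 3.58.1 in R 4.3.3 (lmFit, eBayes, genotype as the only term, two-sided, Benjamini-Hochberg over the 23521 rows at 0.05), with 95% intervals from the moderated SE. The number of arrays limits the precision. Members, lists and tests were chosen with earlier results of these data known. Named signalling genes were those that passed and the 5 with the smallest p in each direction. Genes like Themis were the 8 closest that were not predicted, small RNA or olfactory or vomeronasal receptor genes. Their mean had to reach the median of the row means, 5.07, which is below the background level of 5.21. The remaining genes were named for a role, or as markers of another cell type. The fit was tested on simulated data of 23521 rows with spreads drawn from the fitted prior. Figures were drawn with matplotlib 3.10.9.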

Additional observations from a re-analysis of the deposited data

How the results depend on the processing

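The difference of Themis kept its direction under every alternative tried, with values from 1.72 to 2.19 when an array was left out of the 4 and from 1.77 to 2.0 when 1 was left out of the 6; a genotype left with 1 array is assumed to vary like the other. It no longer passed without PLZF_ON replicate 1 or 2 in either comparison, when any 1 of the 3 WT replicates was left out of the 6, with all deposited rows tested together (1.95 over 4 arrays, adjusted p = 0.299, and 1.86 over 6, adjusted p = 0.207) and with median centring over 6 arrays (1.84, adjusted p = 0.0707). The all-rows alternative adjusts over more rows, but the unadjusted limma p of Themis was larger there too. It was 0.00045 against 3.8e-05 over 4 arrays and 5.4e-05 against 1.3e-05 over 6. For both alternatives the cause of the lost call was not tested. With the replicate number as a block, Themis had adjusted p = 0.0303 over 4 arrays and 0.0386 over 6. The labels do not give the number as a pairing, so it was not treated as one. Over 6 arrays, deviations of same-numbered arrays correlated at 0.09, 0.25 and 0.24, and those of different-numbered arrays at -0.235 to 0.124. A pairing that the labels leave out therefore remains possible.

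The count of rows passing over 4 arrays was 40, against 101 with the replicate block, 22 with all 6 arrays, 0 with all deposited rows and 0 to 106 when an array was left out (0 without PLZF_ON replicate 2, 106 without WT replicate 2). Over 6 arrays it was 22, against 5 with median centring, 0 with all deposited rows, 259 with array weights and 0 to 107 when an array was left out. Array weights over 6 arrays also let 2 signalling genes pass, Cd4 (1.34, adjusted p = 0.0147) and Pag1 (-0.75, adjusted p = 0.0403). The cause of these shifts was not tested.

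None of the other 8 members passed under any alternative, and 3 of them changed sign under some. These were Cd3g, Lat and Lcp2, with main 4-array differences of 0.06, 0.14 and 0.20. Over 4 arrays Cd3g ran from -0.031 to 0.16 when an array was left out, and with all 6 arrays, blocked or not, Cd3g was at -0.036, Lat at -0.07 and Lcp2 at -0.10. Over 6 arrays Cd3g was at 0.054 with quantile normalization and 0.060 with array weights (-0.10 to 0.081 with an array left out), Lat at 0.0036 and 0.075 (-0.16 to 0.077), and Lcp2 at 0.19 with array weights (-0.30 to 0.26).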
